A study of Homo sapiens with 3 samples.

Results

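The genes described here encode the protein components of the cytosolic ribosome. They were taken by symbol, as every RPL and RPS gene with a number and an optional A, X or L suffix, together with RPLP0, RPLP1, RPLP2 and RPSA. The rule found 84 of the 36601 genes in the count matrices, 52 of the large subunit and 32 of the small subunit. Of these, 7 carry an L or L1 suffix and are copies of another member, namely RPL3L, RPL7L1, RPL10L, RPL22L1, RPL26L1, RPL39L and RPS27L. Fusion genes of the ribosome with other names, such as FAU, are outside the rule and were counted in a separate list below. Levels are given as counts of unique molecular identifiers (UMIs) scaled to parts per 1000000 of a library's total (CPM). A level of at least 10 CPM in some library was reached by 82 members, and RPL3L and RPL10L stayed below it in all 3.

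UCLA1, a human embryonic stem cell line kept in long-term culture, was grown as what the labels call GiMO, with Geltrex, an extract of basement membrane, laid over the cells. Groups were day 1, day 2 and day 3 of that culture, all from the same unmodified line as far as the labels say, with 1 droplet single-cell RNA library per day. The series title names a response to BMP4, but the labels give no agent, dose or time for it, so no treatment is assigned to a day here. There was no replicate of any day. Day, library and any processing batch therefore cannot be told apart, and no p-value is given.

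A ribosome is built from ribosomal RNA and a fixed set of proteins, and the messenger RNAs of these proteins are among the most abundant in growing cells. Most of these messengers begin with a run of pyrimidines called the 5′ terminal oligopyrimidine (TOP) motif, through which mTOR signalling and the binding protein LARP1 control their translation. Stem cells are known to change ribosome production and translation as they differentiate, and the counts here measure only the messenger RNA.

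The promoter sequences show what the members share outside the count data. A RefSeq promoter table (GRCh38.p14) held 67 of the 84 members. A run of at least 8 C or T bases that began within 10 bases of the annotated start was found in 49 of those 67 (73.1%), against 10.5% of all 27305 promoters of the table. The start base was C in 70.1% of the members and in 15% of all promoters. Windows of 30 bases, of which 15 lie before the start, are printed below on the strand of the gene, 5′ to 3′, with the longest such run in capitals. RPLP1, RPS12, RPL41 and RPS19 are shown as abundant members with a plain run, RPS27, RPL31 and RPL38 as members that were higher on day 3, RPL18 as one that was lower from day 2, and RPL22 with its copy RPL22L1 as a pair in which both have a run. RPS29, RPL26L1 and RPS27L are shown because no such run was found in this window. Only the annotated start used here was searched, so a run at another start of the same gene would be missed.

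RPLP1: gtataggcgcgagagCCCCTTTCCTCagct
RPS12: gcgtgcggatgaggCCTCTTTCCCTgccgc
RPL41: cggaacttcgCCTTTCTCTCggccttagcg
RPS19: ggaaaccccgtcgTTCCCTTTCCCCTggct
RPS27: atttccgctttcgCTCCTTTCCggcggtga
RPL31: acaatccttcgcgCTCTTCCTTTCCaactt
RPL38: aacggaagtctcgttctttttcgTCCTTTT
RPL18: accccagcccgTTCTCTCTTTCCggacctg
RPL22: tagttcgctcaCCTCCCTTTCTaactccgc
RPL22L1: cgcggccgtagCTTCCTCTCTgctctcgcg
RPS29: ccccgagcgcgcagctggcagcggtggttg
RPL26L1: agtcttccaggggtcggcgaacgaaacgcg
RPS27L: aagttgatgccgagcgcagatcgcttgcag

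The windows of RPS27 and RPL31 lie on the plus strand at chr1:153990747-153990776 and chr2:101002274-101002303. Those of RPL22L1 and RPS29 lie on the minus strand at chr3:170870181-170870210 and chr14:49598696-49598725. In RPL38 the longest run begins 8 bases after the annotated start and continues past the edge of the window to 11 bases, and a shorter run that spans the start is left in lower case. Other motifs were rarer, on either strand of the 300 bases from 250 before to 50 after the start. ACTTCCGG, the core of an ETS-type site, was in 16.4% of the members against 4.44% of all promoters, AAGATGGCG, the core of a YY1-type site, was in 8.96% against 1.85%, and the TATA box TATAAA was in 10.4% against 12%. The 49 genes with a run had a median log2 ratio of day 3 over day 1 of -0.17 and the 17 measured genes without one -0.42, so both medians were below 0. Motif matches are descriptions of letters in a window and not measured binding.

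After filtering, 3533, 7224 and 6804 cells remained on days 1, 2 and 3, with 165813128, 119744389 and 137684818 UMIs. Median UMIs per cell were 41595, 15642 and 19227, so the day 1 cells were the deepest. Cell barcodes shared between kept cells of any pair of libraries numbered 5 to 10. Mitochondrially encoded genes took 4.61%, 4.39% and 3.59% of UMIs, and the nuclear RNA MALAT1 stood at 1291, 2754 and 3564 CPM. The stem cell factor POU5F1 was present at 1172, 1034 and 397 CPM, while the leukocyte gene PTPRC was at 0.0422, 0.0585 and 0.189 CPM. All intervals below are exact 95% intervals that cover counting error only. The spread between cultures is unknown.

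Ribosomal protein genes took 23.66% of all UMIs on day 1 (interval 23.65 to 23.67%), 19.92% on day 2 and 19.51% on day 3. The step lay between days 1 and 2, where the share of day 2 was 0.842 of that of day 1, and the share of day 3 was 0.979 of that of day 2. In single cells the median share was 24.0% on day 1 (quartiles 21.2 and 26.6%), 20.01% on day 2 (17.4 and 22.5%) and 19.8% on day 3 (17.4 and 22.1%), so the quartile ranges of day 1 and day 3 overlapped by less than 1 percentage point. Per cell, ribosomal protein UMIs had medians of 9866, 3142.5 and 3819, and all other UMIs 31937, 12451 and 15382.5. Both kinds were thus lower per cell after day 1, and the ribosomal protein part was lower by more. Fewer captured molecules and less RNA per cell cannot be told apart in these counts.

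The size of that step depended on the scaling. Scaled to the library total, the median gene with at least 10 CPM had a log2 ratio of 0.22 for day 2 over day 1. With TMM factors or with median-of-ratios factors that median was -0.10, and the ratio of the ribosomal protein sum moved from 0.842 to 0.672 under either. For day 3 over day 2 the ratio of the sum moved from 0.979 to 0.991 with TMM and to 1.01 with median-of-ratios, so its direction flips with median-of-ratios factors. Ratios in the paragraphs below are scaled to the library total unless a scaling is named.

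**Figure D1:**
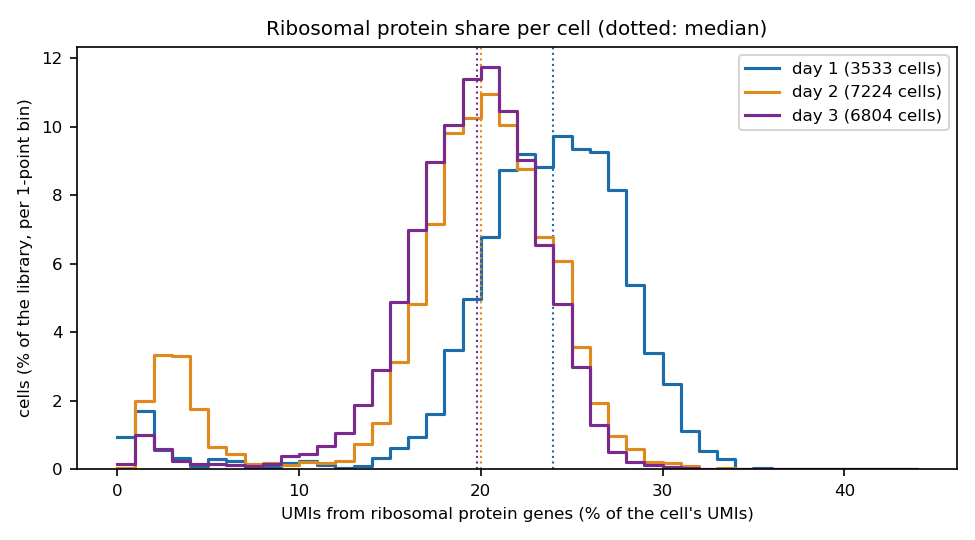
Percent of each library's cells (vertical axis) by the percent of the cell's UMIs that came from ribosomal protein genes (horizontal axis, bins of 1 point), 1 line per day, dotted lines at the medians. The day 1 peak lies to the right of the overlapping peaks of days 2 and 3, and each day has a second, small group of cells with a share under 10%.

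A small group of cells had little ribosomal protein RNA. Cells with a share under 10% numbered 153 on day 1, 865 on day 2 and 207 on day 3, which is 4.33%, 12% and 3.04% of the cells. Their median UMI counts were 11844, 4857 and 5916, against 43245, 16554 and 19458 in the other cells of the same day. Their median mitochondrial share was 14.1%, 14.3% and 11.9% against 4.34%, 3.82% and 3.52%, and their MALAT1 level was 5398, 7912 and 7522 CPM against 1240, 2539 and 3518 CPM. These cells were shallow and high in mitochondrial and nuclear RNA on every day, and day 2 held the most of them. With the mitochondrial limit lowered to 10% the shares of the libraries were 23.9%, 20.5% and 19.6%. The part of RNA quality in the shares was not tested.

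Across cells, the shares of large-subunit and small-subunit UMIs were high or low together. The Spearman correlation of the subunits' shares was 0.98, 0.98 and 0.97 on days 1, 2 and 3, over 3533, 7224 and 6804 cells that share a library and a depth range. In the same cells the ribosomal protein share had correlations of -0.65, -0.59 and -0.41 with the MALAT1 level. With depth it had 0.01, 0.21 and -0.11. The large subunit held 55.9% of the ribosomal protein UMIs on day 1, 57.1% on day 2 and 57.7% on day 3.

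The members were far from uniform between days. A member was called higher where its CPM was at least 25% above that of the earlier library, and lower where the earlier CPM was at least 25% above the later, with an interval of the ratio that excluded 1. For day 2 over day 1, only RPL23A was higher and 26 of 82 measured members were lower, where 40.5% of all 9723 measured genes were called higher and 14.3% lower. Between days 2 and 3, 9 members were higher and 8 lower, against 24.4% and 20.6% of all genes. Across the whole span from day 1, 10 were higher and 37 lower, against 47% and 23% of all genes. The members' median log2 ratio was -0.19, -0.11 and -0.28 in these comparisons and that of all measured genes was 0.22, 0.05 and 0.27. At a ratio of 1.5 in place of 25%, 0 members were higher and 7 lower on day 2 over day 1 (17.5% and 5.3% of all genes), 6 and 2 on day 3 over day 2 (12.3% and 12.2%), and 4 and 19 on day 3 over day 1 (31% and 15.1%). With TMM factors, 0 members were higher and 64 lower for day 2 over day 1, and 4 were higher and 51 lower for day 3 over day 1. The median log2 ratio of all measured genes with these factors was -0.10 and -0.04, and that of the members -0.51 and -0.59. The shares of all genes above are by CPM, and no such share was counted with TMM factors.

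Both subunits held members that were lower on day 3. Of 32 measured small-subunit members 18 were lower and 2 higher on day 3 relative to day 1, with a median ratio of 0.739. Of 50 measured large-subunit members 19 were lower and 8 higher, with a median ratio of 0.891. Of all measured genes 23% were lower and 47% higher in that comparison. The difference between the subunits was not tested, since members of 1 library are not replicates.

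**Figure D2:**
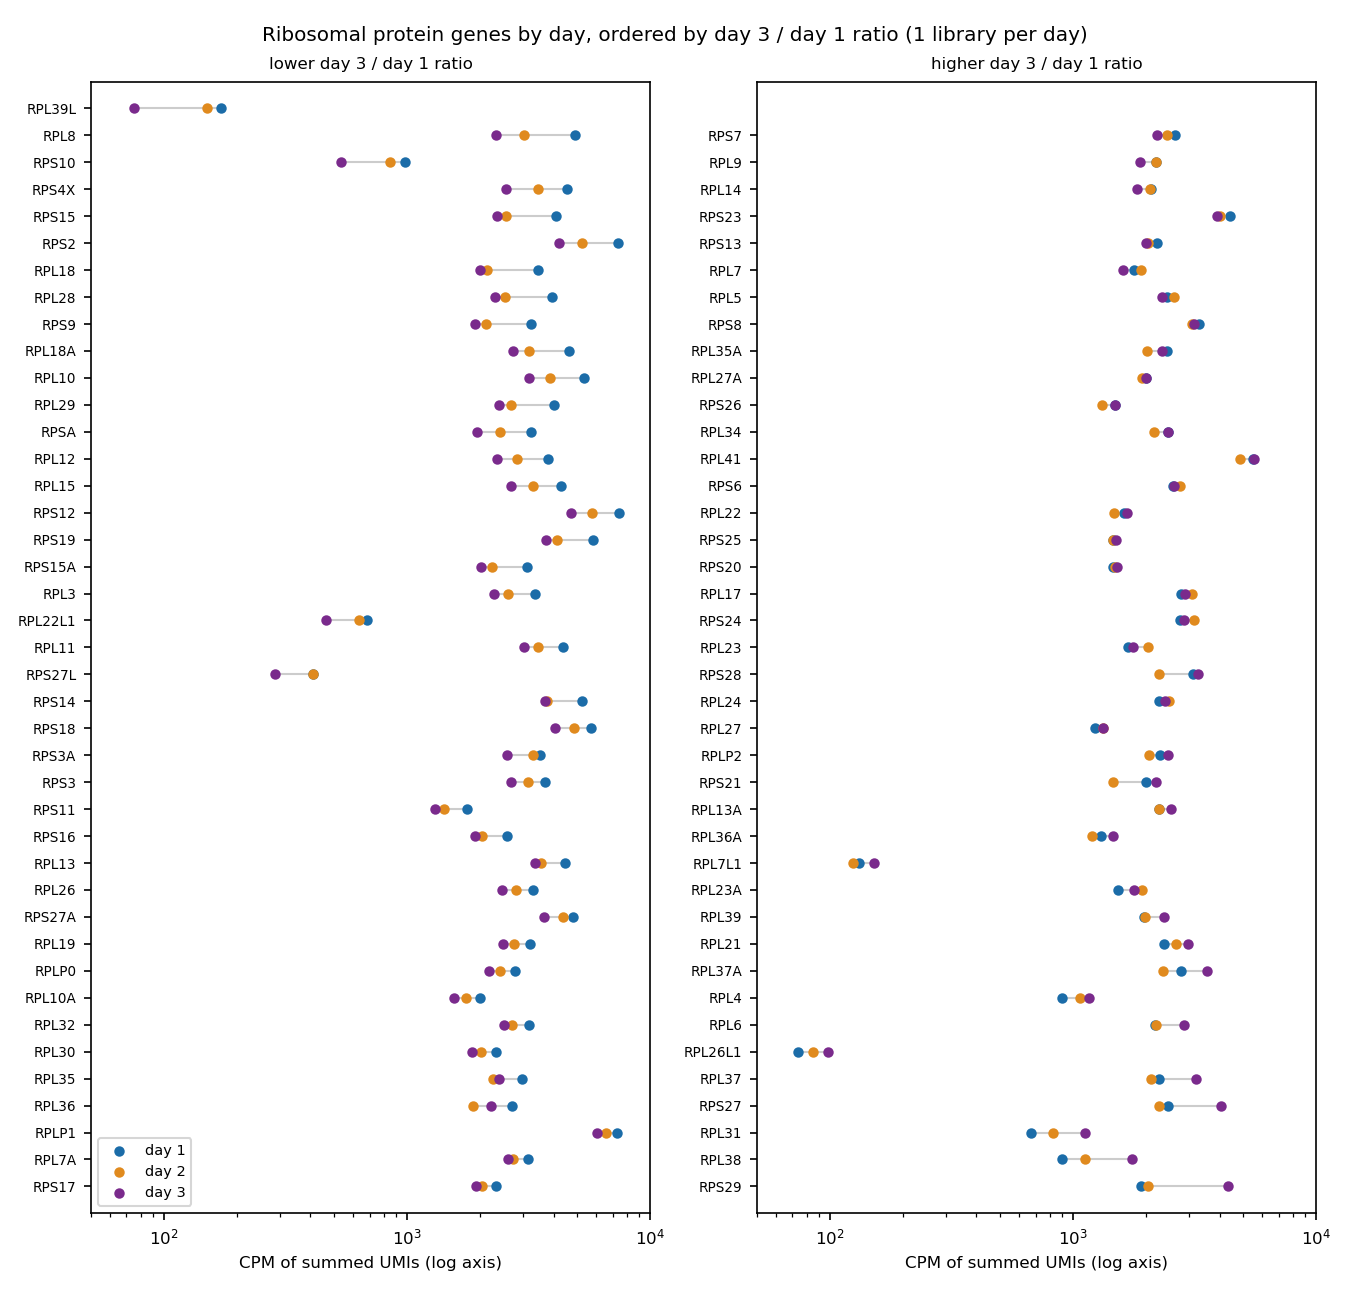
CPM of summed UMIs (horizontal log axis) for 81 of the 82 measured ribosomal protein genes, ordered by the ratio of day 3 over day 1, with 1 point per library. RPL39L and RPL8 head the lower end, and RPS29, RPL38 and RPL31 close the upper end with day 3 to the right of both other days.

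The most counted members included proteins of the ribosomal stalk and of the small-subunit head and body. By mean CPM of summed UMIs, not corrected for length, the leading members were RPLP1, RPS12, RPS2, RPL41, RPS18, RPS19, RPS27A, RPS14, RPL10 and RPS23. RPLP1, an acidic stalk protein that recruits translation factors, had 7322, 6545 and 6013 CPM on days 1, 2 and 3. RPS12, a protein of the small-subunit beak, had 7434, 5726 and 4706 CPM. RPL41, which encodes one of the shortest known human proteins, had 5492, 4862 and 5536 CPM. RPLP1 and RPS12 were thus lower on each later day, with RPS12 at 0.633 of its day 1 level on day 3, while RPL41 returned on day 3 to within 1% of its day 1 level in CPM, a ratio of 1.01 that is below 1 with TMM and median-of-ratios factors.

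By CPM, the stalk and fusion members moved by less than the call in most comparisons. RPLP0, the stalk base, had 2783, 2405 and 2169 CPM, which is a ratio of 0.780 for day 3 over day 1 and a call. RPLP2, the partner of RPLP1, had 2272, 2049 and 2463 CPM and was not called. RPS27A, made as a fusion with ubiquitin, had 4795, 4380 and 3657 CPM, a ratio of 0.763 on day 3 over day 1. RPSA, the laminin receptor form of the small-subunit protein uS2, had 3233, 2402 and 1943 CPM and fell to 0.601 of its day 1 level. Within this small set RPLP2 had its highest CPM on day 3, although with TMM factors its log2 ratio of day 3 over day 1 was -0.19.

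RPL8, RPL18 and RPS15 fell most from day 1 to day 2. RPL8, which lies at the peptidyl transferase centre, had 4903, 3032 and 2319 CPM, a ratio of 0.618 for day 2 over day 1 and of 0.473 for day 3 over day 1 (interval 0.471 to 0.475). RPL18, a large-subunit protein, had 3456, 2138 and 1999.2 CPM, with nearly all of its fall before day 2. RPS15, a protein of the small-subunit head, followed the same course with 4096, 2547 and 2342 CPM. RPS4X, encoded on the X chromosome, had 4543, 3454 and 2553 CPM and was called lower in each interval. RPS2, a small-subunit protein near the decoding site, had 7351, 5231 and 4213 CPM and was called lower on day 2 and across the whole span. On day 3 the 3 genes named first stood at 0.579 of day 1 or less, and RPS4X and RPS2 at 0.562 and 0.573.

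RPS10 fell late. It is a small-subunit protein at the entry of the messenger channel, and it had 976, 850 and 536 CPM, a ratio of 0.871 for day 2 over day 1 and of 0.630 for day 3 over day 2. Its read-through gene RPS10-NUDT3 held 622, 592 and 747 UMIs, or 3.75, 4.94 and 5.43 CPM. Whether reads of RPS10 were lost or moved because of this overlapping gene was not tested. Ribosomal protein genes have many processed pseudogenes of near-identical sequence, and reads that fit several of them may have been dropped or moved by the submitters' counting. The level of each member is therefore less certain than its interval.

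RPS29, RPL38, RPS27 and RPL31 rose by day 3. RPS29, a small zinc-binding protein of the small-subunit head (gene at chr14:49570984-49599164, minus strand, hg38), had 1898, 2025 and 4326 CPM, a ratio of 2.14 for day 3 over day 2 and of 2.28 for day 3 over day 1 (interval 2.27 to 2.29). RPL38, known from mouse genetics for its part in axial patterning, had 901, 1113 and 1741 CPM and a ratio of 1.93. RPS27, also a zinc-binding small-subunit protein, had 2456, 2254 and 4048 CPM, a ratio of 1.65. In these 3 genes day 3 stood well apart from days 1 and 2. RPL31, at the exit tunnel rim, had 669, 827 and 1119 CPM, each level above the one before, and a ratio of 1.67. RPL37, RPL6 and RPL4 rose by less, with ratios of 1.43, 1.32 and 1.29. With TMM factors the log2 ratios of RPL37, RPL6 and RPL4 were 0.20, 0.09 and 0.06, and all 3 fell short of the 25% with TMM and with median-of-ratios factors.

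Direction on day 2 was less firm for the members that rose later. RPL38 and RPL31 had CPM ratios of 1.23 and 1.24 for day 2 over day 1, which are log2 ratios of -0.02 with TMM factors, and RPS29 had log2 ratios of 0.09 and -0.23. RPL23A, with 1529, 1926 and 1782 CPM and a ratio of 1.26 on day 2, had a log2 ratio of 0.01 with TMM factors. For day 3 over day 2 the rises of RPS29, RPL38, RPS27 and RPL31 were log2 ratios of 1.11, 0.66, 0.86 and 0.45 with TMM factors, close to those of CPM.

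A set of members has known links to disease, stress or selective translation. RPL5 and RPL11 form with 5S RNA the particle that binds MDM2 and stabilises p53. RPL5 had 2423, 2586 and 2309 CPM and was not called, whereas RPL11 had 4374, 3460 and 3018 CPM and fell to 0.690 of day 1. RPS19, the gene most often mutated in Diamond-Blackfan anaemia, had 5787, 4145 and 3723 CPM, a ratio of 0.643. RPS25, needed for several internal ribosome entry sites, had 1462, 1452 and 1506 CPM and RPL10A had 1994, 1741 and 1555 CPM, with ratios of 1.03 and 0.780. Of these 5 genes, RPL11, RPS19 and RPL10A were called lower on day 3, and RPL5 and RPS25 were not called in any comparison. With TMM factors all 5 had log2 ratios of day 3 over day 1 below 0, from -0.27 for RPS25 to -0.94 for RPS19, and RPL5, at -0.38, was past the 25%.

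The fall from day 1 to day 2 was ordered by base composition. GC content of the canonical transcript (GENCODE v44) ran from 39.9 to 63.6% among the members, and its Spearman correlation with the log2 ratio of day 2 over day 1 was -0.65 over 82 members. All 13 measured members with at least 55% GC were below 1, with a median ratio of 0.666, and the 24 with under 45% had a median of 0.931. Other nuclear genes were ordered the same way, with a correlation of -0.59 over 740 genes of at least 200 CPM and medians of 0.701 at 55% GC or more and 1.17 under 45%. The high-GC members thus fell by about as much as other abundant high-GC genes, while the median of the low-GC members was below that of their counterparts. These genes share their 2 libraries, and the part of library preparation in this order was not tested. Over the next interval the same correlation was -0.13 over the members. The canonical transcripts of RPL37 and RPL14 are 7573 and 7136 bases long, against a median of 827 bases over the members. The length and GC content of a canonical transcript may thus not be those of the transcript that the cells make.

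The rise from day 2 to day 3 was ordered by coding length, a property chosen after the values were seen. In 9 measured members that are not copies the coding sequence is under 300 bases, and all 9 had a ratio above 1 for day 3 over day 2, from 1.14 to 2.14. Of these, 7 were called higher, against 24.4% of all genes. The 9 members were RPL41, RPL39, RPS29, RPS28, RPL38, RPS21, RPS27, RPL37A and RPL37. The copies RPL39L and RPS27L have equally short coding sequences and were both lower. With the copies counted, the 11 short members had a median ratio of 1.501, the 29 members of 300 or more and under 450 bases 0.978, the 19 from there to under 600 bases 0.8996, and the 23 longer ones 0.889. Other nuclear genes of at least 200 CPM did not follow that order: 65 of them with under 300 coding bases had a median of 1.00, with 33 above 1, and 526 with 600 bases or more had 1.06. By whole-transcript length, 9 members under 500 bases had a median of 1.20 and the 22 other nuclear genes of that length and at least 200 CPM had 1.09. All 114 other measured nuclear genes of that length had a median of 1.19, close to that of the members, with 68 above 1.

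**Figure D3:**
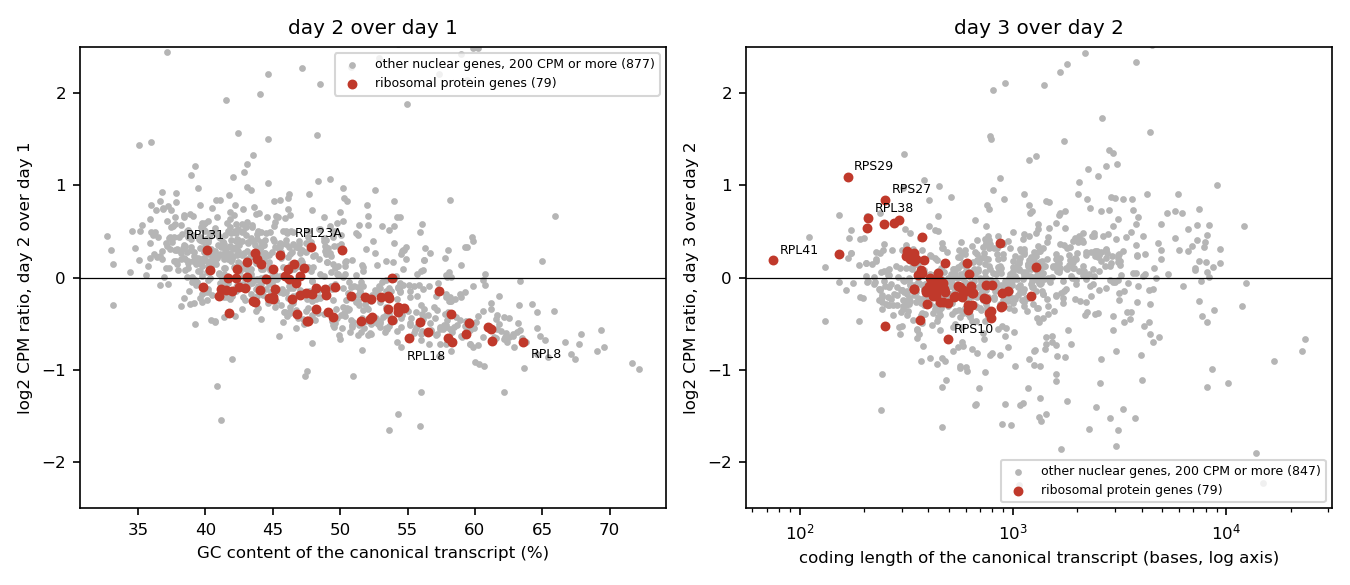
Log2 CPM ratio against GC content of the canonical transcript for day 2 over day 1 (left) and against its coding length on a log axis for day 3 over day 2 (right). Shown are 79 ribosomal protein genes (red) and other nuclear genes (grey, 877 and 847), all of at least 200 CPM in some library. The copies RPL39L, RPL7L1 and RPL26L1 are below that level and not drawn, and RPL39L is a short member that was lower on day 3. Red and grey points slope down together on the left, and the short red points on the right lie above 0, led by RPS29, except 1. Points beyond 2.5 on the vertical axis, 16 and 25 of them, are not drawn.

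RPS21 and RPS28 showed both courses in turn. RPS21, a small-subunit protein, had 1984, 1457 and 2187 CPM, a ratio of 0.734 and then of 1.501. RPS28, near the messenger exit, had 3102, 2257 and 3269.8 CPM, a ratio of 0.728 and then of 1.45. Both were called lower on day 2, higher on day 3, and not called across the whole span.

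The copies followed their own courses. RPL39L, a copy of the exit tunnel protein RPL39 that is best known from male germ cells and stem cells (gene at chr3:187120948-187180908, minus strand, hg38), had 172, 151 and 74.9 CPM, a ratio of 0.436 for day 3 over day 1 (interval 0.427 to 0.446). RPL39 itself had 1960, 1976 and 2362 CPM. RPL22L1, which is known to be regulated by RPL22, had 682, 634 and 462 CPM, against 1624, 1465 and 1667 CPM for RPL22. In both pairs the copy had its lowest CPM on day 3 and the parent its highest, although with TMM factors the log2 ratios of day 3 over day 1 were -0.04 for RPL39 and -0.27 for RPL22. RPS27L, a p53 target, had 410, 411 and 287 CPM and a ratio of 0.699, where its parent RPS27 rose.

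Of the other measured copies, RPL26L1 was called higher on day 3, a call that TMM and median-of-ratios factors end. RPL26L1 had 73.7, 85.3 and 98.3 CPM, a ratio of 1.33 for day 3 over day 1 and of 1.08 with TMM factors, while RPL26 had 3281, 2812 and 2452 CPM. RPL7L1, a low-level relative of RPL7, had 132, 124 and 152 CPM and was not called, and its log2 ratio of day 3 over day 1 was 0.20 by CPM and -0.11 with TMM factors. RPL3L, a heart and muscle form, had 0.398, 0.668 and 0.617 CPM, and RPL10L, a testis form, had 0, 2 and 2 UMIs. For RPL10L the count of 0 on day 1 allows a level of up to 0.0181 CPM.

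Ribosomal protein shares were then compared between cells with and without a UMI of a marker gene, with every cell thinned to 5000 UMIs and 34, 482 and 129 shallower cells left out. The 11 markers were SOX2 (pluripotency and neural fate), TBXT, MIXL1 and EOMES (primitive streak), MESP1, HAND1, LHX1 and TBX6 (mesoderm), SOX17 (endoderm and germ cells), and TFAP2A and GATA3 (surface ectoderm, amnion and trophoblast). A marker UMI defines a class of cells and not a cell type: a cell without one may still express the gene, and free RNA can give a UMI to a cell that does not. A class needed 50 cells on both sides, which left 28 comparisons of a marker in a library.

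Shares differed little between these classes. The ratio of positive over negative cells ran from 0.973 to 1.09, with 23 of 28 ratios above 1, whereas the step between days 1 and 2 was 0.842. MESP1-positive cells had 20.5% against 19.4% on day 2 and 20.2% against 18.6% on day 3. MIXL1-positive cells had 24.5% against 23.3%, 20.3% against 18.7% and 19.8% against 19.2% on days 1, 2 and 3. On day 3, GATA3-positive cells were lowest relative to their negatives, at 19.2% against 19.7%. The medians of single cells differed less, and in 11 of the 28 comparisons the positive cells had the lower median.

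RNA quality differed between some of these classes, and not always in the direction of the shares. On day 3 the mitochondrial share was 3.58% in MESP1-positive cells and 4.08% in the negative cells, and MALAT1 was at 3122 and 4237 CPM. For MIXL1 on day 2 the mitochondrial shares were 4.27% and 4.99%, and MALAT1 was at 2566 and 3269 CPM. In HAND1-positive cells the ribosomal protein share was the higher on days 2 and 3, and so was MALAT1, although the mitochondrial share was lower. Their MALAT1 was at 3140 against 2872 CPM on day 2 and at 3660 against 3236 CPM on day 3. With the mitochondrial limit at 10%, 18 of 28 ratios were above 1 and the highest, again of MESP1 on day 3, was 1.07. Among cells of 10000 to 30000 UMIs 14 of 25 ratios were above 1, and with cells thinned to 10000 UMIs 17 of 30 were. The part of RNA quality in the remaining differences was not tested.

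**Figure D4:**
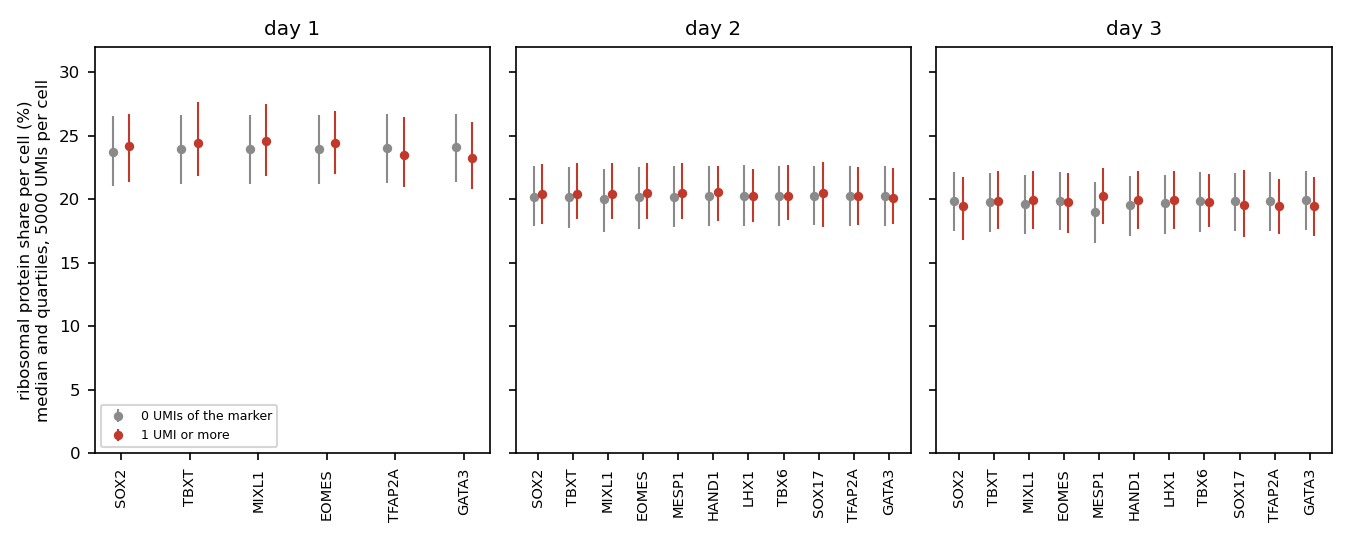
Ribosomal protein share per cell after thinning to 5000 UMIs (vertical axis, percent) in cells without (grey) and with (red) a UMI of each marker, 1 panel per day, as medians with quartiles. Within each day the medians of all classes lie close together and their quartile ranges overlap, and day 1 lies above days 2 and 3.

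The day 1 to day 2 step was present in each class that could be compared. Cells were divided without overlap into MESP1-positive cells, cells with TBXT, MIXL1 or EOMES but no MESP1, SOX2-positive cells without these, and the rest. Shares in streak marker-positive cells without MESP1 were 24.3% on day 1, 20.05% on day 2 and 18.5% on day 3. In SOX2-positive cells they were 23.6% on day 1 and 19.3% on day 2. In the rest they were 22.6%, 17.7% and 18.6%. The ratios of day 2 over day 1 were 0.824, 0.817 and 0.784 in these 3 classes. Only 15 cells were MESP1-positive on day 1 and only 44 were in the SOX2 class on day 3, and these were not compared.

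Between days 2 and 3 the ratio of the shares was on either side of 1. The share of MESP1-positive cells was 20.5% and 20.2%, a ratio of 0.985, whereas streak marker-positive cells without MESP1 had a ratio of 0.922 and the rest 1.05. With the mitochondrial limit at 10% the shares of the rest were 19.8% and 19.2%, so the direction in that class turned, while the streak class had 20.6% and 18.7%. Some of the members furthest from 1 in whole libraries had similar ratios in each class. RPS29 had ratios of day 3 over day 2 of 2.08, 2.01 and 2.29 in the MESP1, streak and remaining cells, RPL38 had 1.55, 1.49 and 1.63, and RPL39L had 0.610, 0.532 and 0.476. RPL8 had ratios of day 2 over day 1 of 0.601, 0.613 and 0.589 in the streak, SOX2 and remaining cells. MESP1-positive cells were 19.1% of the thinned cells on day 2 and 62.9% on day 3, and the part of class sizes in the ratios of whole libraries was not tested. By the ratio alone, 9 members were higher and 6 lower on day 3 over day 2 in MESP1-positive cells, against 20.2% and 18.2% of all genes there. In the streak class 8 were higher and 21 lower, against 28.5% and 18% of all genes, and in the rest 13 were higher and 4 lower, against 26.6% and 27%. The counts thus differed between the classes, a difference that was not tested. In streak marker-positive cells without MESP1, 1 member was higher and 26 were lower on day 2, against 42.7% and 15.7% of all genes.

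Composition of the ribosomal protein set was nearly the same in marker-positive and marker-negative cells of a day. Over 77 members that are not copies and 28 comparisons, 0 of 2156 ratios reached the 25% of a call in either direction, and they ran from 0.841 (RPL13A, SOX2, day 3) to 1.16 (RPS27, MIXL1, day 2). Of the ratios of all genes with at least 10 CPM 25.8% did so, and of those of other nuclear genes with at least 500 CPM 12.2%. Among the 5 measured copies, 11 of 140 ratios passed, or 7.86%, which is also below both of these shares.

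Of those 11, RPL39L accounted for 7 in its 28 comparisons, a share close to the 25.8% over all genes with at least 10 CPM. HAND1-positive cells had 106 CPM against 148 CPM on day 2 and 67.1 against 97.0 CPM on day 3, ratios of 0.713 (interval 0.627 to 0.809) and 0.692 (0.638 to 0.751). It was called lower in both libraries with that class, as were 9.45% of all genes, and 0 members were called higher in both, against 4.9% of all genes. No member was called in 1 direction in every library of another marker, where the shares of all genes ran from 0.117 to 8.09%. SOX2-positive cells had ratios of 1.03, 1.16 and 1.76 on days 1, 2 and 3, the last from 132 against 74.6 CPM. RPL39L was also past the 25% in TBXT-positive cells of day 3, with a ratio of 1.36, in LHX1-positive cells of day 3 (0.774), and in TBX6-positive and SOX17-positive cells of day 2 (0.749 and 0.722). Only 146 cells were SOX2-positive on day 3, and 210 and 114 were TBX6-positive and SOX17-positive on day 2, so those ratios rest on few cells. RPL39L was thus higher with SOX2 or TBXT on day 3 and lower with HAND1, LHX1, TBX6 or SOX17 in the libraries named. The parent RPL39 had ratios between 0.988 and 1.07 in all of these comparisons.

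The other 4 of these ratios were of day 3 and of SOX17 or TFAP2A. RPL22L1 had a ratio of 0.653 in SOX17-positive cells and of 0.775 in TFAP2A-positive cells. RPL26L1 had 0.722 in the former and RPL7L1 had 0.681 in the latter. RPS27L was past the 25% in 0 of its 28 comparisons. TFAP2A-positive cells of day 3 numbered 226 and SOX17-positive cells 220, so these ratios rest on few cells.

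**Figure D5:**
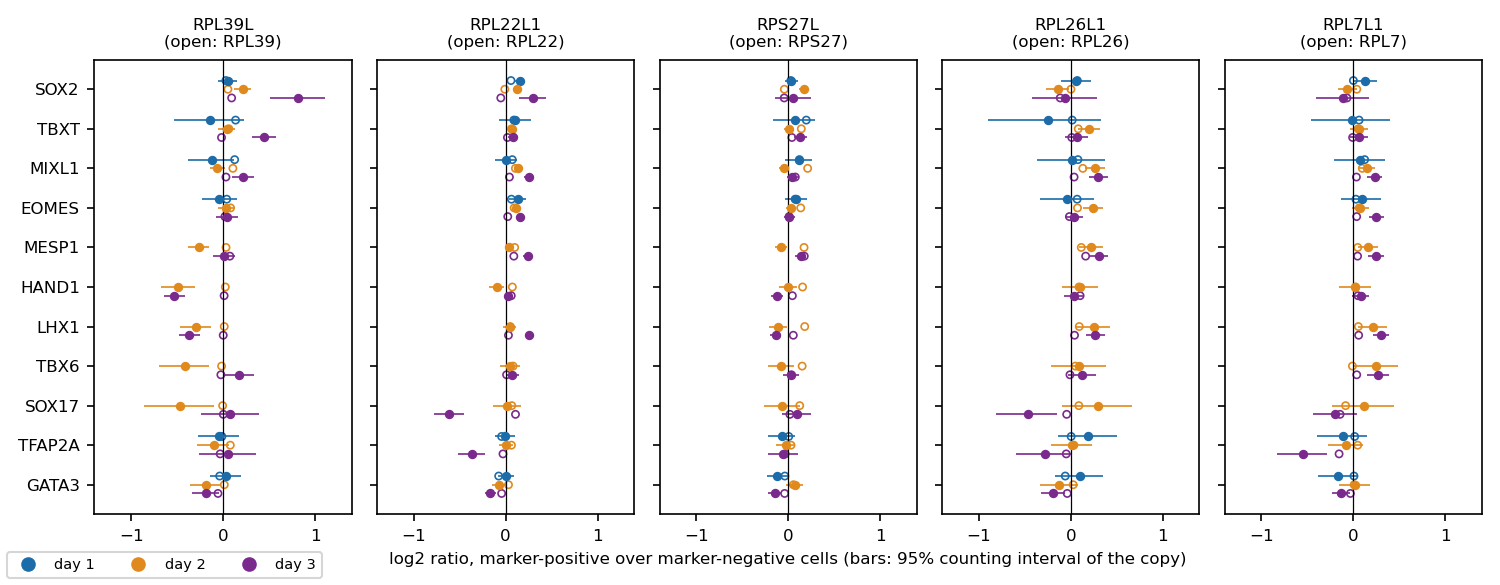
Log2 ratio of CPM in marker-positive over marker-negative cells (horizontal axis) for 5 copies (filled points, bars 95% counting intervals) and their parent genes (open points), by marker and day. The parents lie close to 0, and RPL39L departs to the left for HAND1 and to the right for SOX2 and TBXT on day 3.

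Variation between cells differed among members. In cells with at most 10% mitochondrial UMIs, thinned to 5000 UMIs, the variance over the mean was 3.42, 2.76 and 2.30 for RPS12 on days 1, 2 and 3, where counting alone gives about 1. RPL8 had 2.87, 2.17 and 1.75, and RPL4, a large-subunit protein with a loop in the exit tunnel, had 1.04, 1.14 and 1.14. The ratio grows with the level, and RPL4 was counted at 4.46, 5.43 and 5.88 UMIs per cell against 37.4, 29.1 and 23.9 for RPS12. RPLP1, at 37.7, 33.9 and 30.7 UMIs per cell, had lower ratios than RPS12 on each day, 2.18, 2.39 and 2.18, so level alone did not order this pair. The standard deviation beyond counting error, divided by the mean, was 0.25, 0.25 and 0.23 for RPS12. By that measure the copy RPS27L varied more, at 0.46, 0.49 and 0.55, from 2.09, 2.09 and 1.44 UMIs per cell.

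Other genes of protein synthesis were counted from lists, on the ratio of day 3 over day 1 and against the 47% higher and 23% lower of all genes. Of 24 other mRNAs known to carry the TOP motif, 7 were higher and 8 lower, with a median log2 ratio of 0.01. Among them FAU, which encodes a ribosomal protein fused to a ubiquitin-like protein, had 1986, 1339 and 1178 CPM. PABPC1, the poly(A)-binding protein, had 402, 677 and 728 CPM. FAU thus fell as many members did, and PABPC1 rose to 1.81 of day 1.

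Mitochondrial ribosomal proteins, which serve the separate ribosome of mitochondria, were lower in 42 of 77 measured genes and higher in 8, with a median of -0.35. Their summed share was 0.997%, 0.828% and 0.780% of UMIs. Ribosome biogenesis factors were higher in 12 of 28 and lower in 2, with a median of 0.29. GNL3, the nucleolar protein nucleostemin, had 119, 168 and 270 CPM, and BOP1, of the PeBoW complex, had 74.3, 40.8 and 58.2 CPM. Initiation factors were higher in 10 of 20 and lower in 2, and EIF6, which keeps free large subunits apart from small ones, had 311, 172 and 125 CPM.

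Among 8 listed regulators, 6 were higher and 1 was lower. EIF4EBP1, a translation repressor controlled by mTOR, had 505, 299 and 203 CPM, a ratio of 0.403. MYC, which drives ribosome production in many cells, had 26.1, 39.3 and 46.02 CPM, and LARP1 had 155, 176 and 195 CPM. Of 12 genes of RNA polymerase I transcription 4 were higher and 1 was lower, POLR1B, with 34.5, 30.3 and 22.7 CPM. Of 7 measured p53 targets 4 were higher and 2 lower, and CDKN1A had 11.3, 11.4 and 15.6 CPM. The median log2 ratio of the regulators was 0.62, above the 0.27 of all genes, and that of RNA polymerase I genes was 0.19, below it.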

How the data were processed

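Single-cell RNA was measured in 1 library for each of 3 days of culture. The deposited matrices hold raw UMI counts per gene and cell, made by the authors with Cell Ranger 5.0.1 and the hg38 2020-A reference, per the submitters' processing notes and the labels' protocols. Barcodes with fewer than 1000 genes or over 20% mitochondrial UMIs were left out. Scrublet (scanpy 1.11.5) marked 3, 1 and 1 doublets, so the highest-scoring 0.8% per 1000 barcodes were removed instead, 144, 668 and 457 cells. UMIs were summed per library and divided by 165813128, 119744389 and 137684818 to give CPM. Ratios have exact conditional binomial intervals and shares Clopper-Pearson intervals, at 95%. The rule for calls was run on simulated data, and whether the calls hold between cultures was not tested. Alternatives covered barcodes, mitochondrial limit, doublets, depth, totals, TMM (edgeR 4.0.16) and median-of-ratios scaling, fold and minimum level.

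Members and lists were chosen with earlier results of these data known. Named members are the 10 most counted, the extremes of each ratio (8 on either side for day 3 over day 1, 3 for the others), copies with parents, stalk and fusion members, members called for a marker in every library, 6 genes of known interest, members under 10 CPM, and at most 4 genes per list. RPS21, RPS28, RPL37A, RPL13A and several list genes outside that rule were named after their values were seen. Some genes that this rule selects are not reported here, though counts include them. Coordinates are from GENCODE v44 and RefSeq GRCh38.p14. The lists of S phase, G2/M, nuclear-retained and mitochondrially encoded genes had 5 higher and 3 lower of 15, 12 and 0 of 15, 2 and 0 of 2, and 5 and 5 of 13 on day 3 over day 1. Of all measured genes 47% were higher and 23% lower there.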

Additional observations from a re-analysis of the deposited data

Results flagged for a closer look

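The ratio of the ribosomal protein share in positive over negative cells changed sides of 1 between libraries for 3 markers. For SOX2 it was 1.041, 1.022 and 0.9762 on days 1, 2 and 3. For TFAP2A it was 0.9906, 1.019 and 0.9838, and for GATA3 it was 0.9803, 1.019 and 0.9732. With 1 library per day the difference between days was not tested.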

How the results depend on the processing

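Over 41 named members and 123 ratios between days, 19 changed sign with TMM or median-of-ratios factors, and 0 of those 19 were past the 25% by CPM. For days 1, 2 and 3 the ribosomal protein share was 23.25, 19.43 and 19.39% with all deposited barcodes, 23.90, 20.47 and 19.59% with the mitochondrial limit at 10%, 23.00, 20.23 and 19.76% in cells of 10000 to 30000 UMIs, 24.80, 20.83 and 20.23% of the total without mitochondrial genes, and 23.15, 18.58 and 19.36% as the mean over cells. With doublets kept, day 3 was 19.49%, and the large-subunit percent of day 3 was 57.72%. In cells of 10000 to 30000 UMIs that percent was 55.99 on day 1 and 57.09 on day 2. For day 2 over day 1, 0 members were higher with all barcodes, with TMM, with median-of-ratios and at 1.5-fold, 3 with the mitochondrial limit at 10% and 4 in cells of 10000 to 30000 UMIs, and 64 were lower with TMM, 64 with median-of-ratios and 7 at 1.5-fold. Between days 2 and 3, 2 were lower at 1.5-fold. From day 1 to day 3, 4 were higher with TMM, with median-of-ratios and at 1.5-fold, and 19 were lower at 1.5-fold. Shares of all genes called were not counted with TMM or median-of-ratios factors, nor in the other sets of cells. Positive cells had the higher share in 15 of 19 comparisons with markers at 2 UMIs or more and in 14 of 25 in cells of 10000 to 30000 UMIs. With cells thinned to 10000 UMIs they had it in 17 of 30. The ratios ran from 0.935 to 1.08 in cells of 10000 to 30000 UMIs and from 0.946 to 1.06 with that thinning. No paired analysis was possible because each day has 1 library and the days share a single replicate number. Leaving out a replicate was not possible for the same reason. Counting error was small for the members at 10 CPM or more, and the spread between cultures is unknown.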
